A study of Mus musculus with 11 samples.

Results

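The genes described here encode parts of the lysosome in the mouse heart: 40 listed genes for its membrane proteins, its hydrolases and their activators, its proton pump (the V-ATPase) and the transcription factor Tfeb. They were chosen by symbol, with earlier results of these data known, and cathepsins were left out. Of the 40, 39 were matched to a row among the 21878 rows of the deposited table. Atp6ap1, an accessory subunit of the pump, was not matched to a row and is not analysed here. No symbol was found for 2800 of the rows, so its row may be among them. The test used rows with a mean of at least 1 FPKM (a read density, corrected for transcript length and sequencing depth) over all samples, which 37 of the 39 passed. Acp5 and Atp6v0d2 were below it. Gla passed narrowly, with a mean of 1.03 FPKM, above the minimum in the controls (1.14) and below it in the PCOS group (0.906).

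Heart RNA came from wild-type female mice. The PCOS group (5 samples) had been exposed before birth to anti-Müllerian hormone, which gives female offspring features of polycystic ovary syndrome, and the control group (6 samples) received phosphate-buffered saline before birth. Strain and age were not given in the sources used here. Whether each sample is a separate mouse is not stated in the labels, so a p-value here reflects sample-to-sample spread that may be technical.

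Lysosomes are acidic organelles that break down material delivered by endocytosis, phagocytosis and autophagy. The V-ATPase acidifies them, soluble hydrolases cut proteins, lipids, glycans and glycosaminoglycans, and heavily glycosylated membrane proteins line the inside of the limiting membrane. Nearly every cell has lysosomes, heart muscle cells rely on them for autophagy and for breaking down glycogen, and macrophages are especially rich in them. Tfeb activates many lysosomal genes through a short promoter element that contains the E-box CACGTG.

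Reads recovered from the FPKM values ranged from 11866291 to 14346620 per sample. Summed cardiomyocyte markers were at 28160 FPKM or more in every library. Control replicate 6 stood apart: its median correlation across genes with the other samples was 0.962, against 0.987 to 0.993 for the others, and its summed hepatocyte markers reached 1563 FPKM, against at most 8.65 in any other sample. Control replicates 2 and 5 also stood apart, with Apoe at 6.04 and 8.29 FPKM against 98.8 to 486 in the other 9 samples. In control replicate 4 the summed markers of several cell types were the lowest of the controls. They were 114 FPKM for endothelial cells (control median 176), 125 for fibroblasts (median 222) and 131 for macrophages and monocytes (median 187). Cd68 is given with and without these libraries, and several other genes are also given without some of them.

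Cd68 was the only one of the 37 tested lysosomal genes to pass the test, and it rose in PCOS hearts. None fell. Among all 10891 tested rows, 15 rose (0.138%) and none fell (0%) at an adjusted p under 0.05 (limma). The differences of the 37 genes lay on both sides of 0: 19 were above and 18 below, with a median of 0.005 on the log2(FPKM + 1) scale, beside a median of 0.002 over all tested rows. At an unadjusted p under 0.05, 5 of the 37 were higher (13.5%), Cd68 among them, and 1 was lower (2.7%). Of all tested rows, 3.51% were higher and 3.17% were lower. The 37 were listed with earlier results of these data known, so their shares are a description and were not tested as a set. The summed level of the tested genes had a median of 1702 FPKM in controls (range 1544 to 1750) and 1691 FPKM in PCOS hearts (range 1576 to 1769), so the groups overlapped. Psap, Lamp1 and Laptm4a, at means of 552, 253 and 203 FPKM over all samples, made up most of that sum. The lowest control sum was that of control replicate 6.

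**Figure D1:**
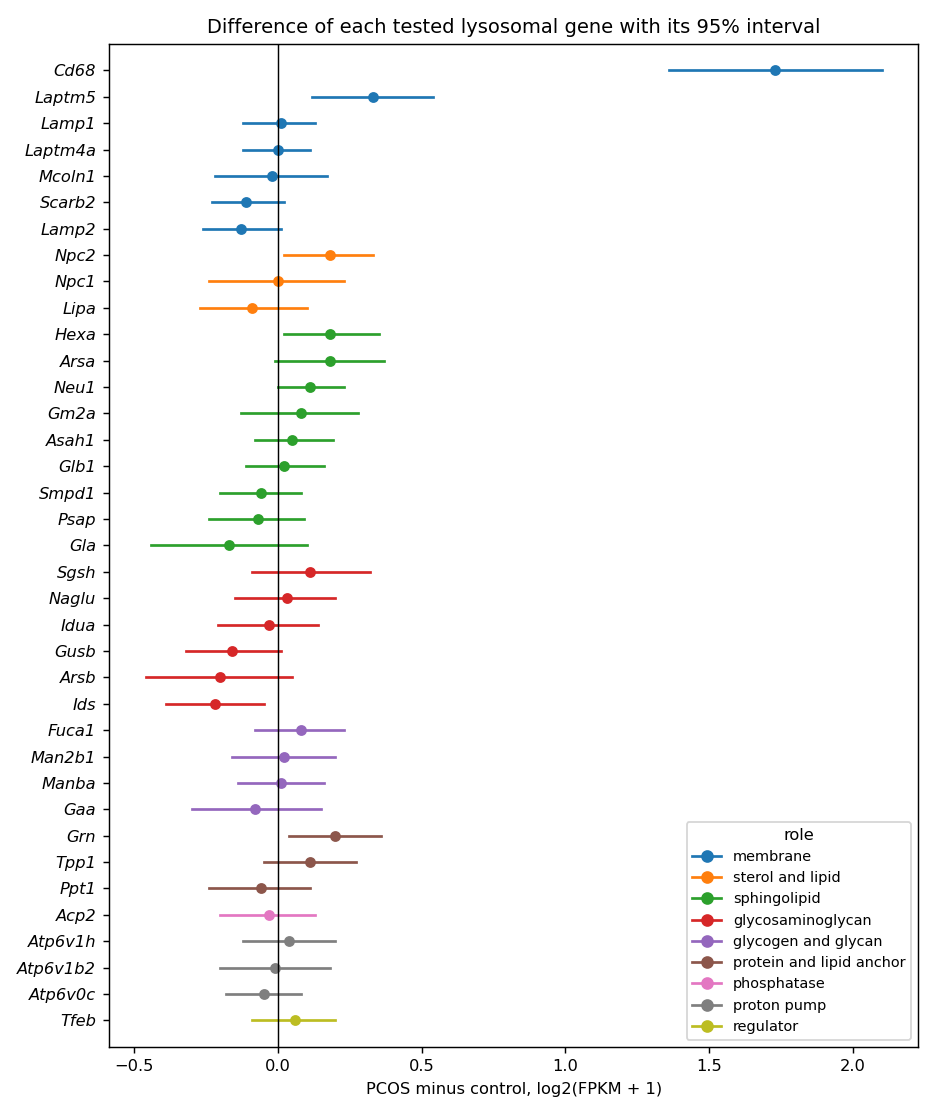
The difference between PCOS and control hearts on the log2(FPKM + 1) scale (x axis) for each of the 37 tested lysosomal genes (rows), with points for limma's estimate, bars for its 95% interval and colours for the gene's role. Cd68 stands alone at 1.73, and the other 36 lie between −0.22 and 0.33.

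Among the membrane proteins, Cd68 (macrosialin) is a lysosome-associated glycoprotein that is abundant in macrophages and monocytes. Its gene lies on chromosome 11 from 69664213 to 69666170 (GRCm38, minus strand), and its exons overlap no other annotated gene. In control replicates 1 to 6 Cd68 measured 5.34, 4.05, 3.56, 2.79, 7.43 and 5.49 FPKM. In PCOS replicates 1 to 5 it measured 17.0, 15.6, 18.5, 15.9 and 21.0 FPKM. Every PCOS sample lay above every control, the highest of which was replicate 5. These levels rest on 44 to 110 reads in controls and 248 to 360 reads in PCOS samples. The means were 4.78 ± 1.66 (SD, n = 6) and 17.6 ± 2.22 FPKM (SD, n = 5), a 3.69-fold ratio. The log2 difference was 1.73 with a standard error of 0.17 and a 95% interval of 1.36 to 2.10 (adjusted p = 0.000298, limma), the fifth largest difference of all tested rows. It was 1.77 without control replicate 6 (adjusted p = 0.000226, limma), 1.84 without control replicates 2 and 5, and 1.95 without all 3 of them. Without control replicate 4, the lowest control, it was 1.62.

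The 250 bases before the Cd68 transcript start are shown because Cd68 is the gene that rose. They were taken from RefSeq (GRCm38.p6, chr11:69666171-69666420, minus strand) and are written 5′ to 3′, with capitals marking GAGGAA, the core letters of sites known to bind the macrophage factor PU.1.
Cd68: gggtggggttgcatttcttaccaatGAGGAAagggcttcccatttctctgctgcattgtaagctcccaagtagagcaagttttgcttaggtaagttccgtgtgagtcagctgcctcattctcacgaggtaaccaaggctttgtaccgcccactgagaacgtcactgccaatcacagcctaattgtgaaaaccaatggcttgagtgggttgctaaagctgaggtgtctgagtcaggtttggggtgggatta
GAGGAA is a common word: on either strand it occurs in 28.3% of all 32851 RefSeq windows of 300 bases (250 before to 50 after the start), in 26.7% of the windows of tested genes and in 35.7% of the 42 windows of the lysosomal genes. In the Cd68 window a further match, on the other strand, begins 29 bases after the start, outside the bases shown. CACGTG does not occur in that window. A match is a string of letters and not a measured binding site.

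Laptm5, a lysosomal membrane protein found mostly in blood-derived cells, was the next by p. Its levels in control replicates 1 to 6 were 6.13, 5.94, 6.07, 4.76, 6.39 and 6.66 FPKM. The PCOS samples measured 7.59, 7.07, 8.78, 6.44 and 9.21 FPKM, so only PCOS replicate 4 lay inside the range of the controls, whose upper end was control replicate 6. The difference was 0.33 with a 95% interval of 0.12 to 0.54 and did not pass the test (adjusted p = 0.738). Without control replicate 6 the highest control was 6.385 FPKM, the groups did not overlap, and the difference was 0.36 (adjusted p = 0.107, limma). Among all tested rows, 29 rose without control replicate 6, against 15 with all samples. Without control replicate 4, the lowest control, the Laptm5 difference was 0.28. Laptm5 lies on chromosome 4 from 130912890 to 130936148.

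The other membrane proteins, found in lysosomes of most cells, did not pass the test. Lamp1, 1 of the 2 main ones, averaged 252 ± 10.5 FPKM in controls and 253 ± 17.5 in PCOS hearts, with a 95% interval of the log2 difference of −0.12 to 0.13. Laptm4a, a small transmembrane protein of late endosomes and lysosomes, averaged 203 and 202 FPKM (interval −0.12 to 0.11). Lamp2, which is needed for autophagosome clearance in heart muscle, had a median of 34.5 FPKM in controls (range 31.3 to 36.7). The PCOS samples held 28.4, 31.2, 33.9, 33.2 and 30.4 FPKM of Lamp2, overlapping the controls, and the difference of −0.13 did not pass the test. Scarb2, the receptor that carries glucocerebrosidase to lysosomes, had a control median of 48.2 FPKM (range 42.8 to 50.5) and PCOS values of 40.9, 44.5, 45.9, 45.0 and 44.9. Its difference of −0.11 did not pass either (adjusted p = 0.742). The lowest control was replicate 6. The others held 46.9 FPKM or more, above every PCOS sample. Without control replicate 6 the Scarb2 difference was −0.14 (adjusted p = 0.163, limma), and without control replicates 2 and 5 it was −0.08. Mcoln1, the calcium-conducting channel of lysosomes, differed by −0.02 (interval −0.22 to 0.17), and by −0.09 without control replicate 6, its lowest control.

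The level of Cd68 was also set against other genes of the same libraries, as a ratio. On the log2 scale the ratio of Cd68 to Lamp1 was −5.79 ± 0.49 in controls (SD, n = 6) and −3.85 ± 0.14 in PCOS hearts (SD, n = 5; exact two-sided permutation p = 0.00433). The ratio was 2.08 higher in PCOS hearts over Lamp2 and 1.57 higher over Laptm5. Ratios to 3 macrophage genes were also higher, by 1.15 for Lyz2, 1.38 for C1qa and 1.59 for Mrc1. In each of the 6 ratios every PCOS sample was above every control, and 0.00433 is the smallest p the design allows. Adjusted over the 6 ratios it is also 0.00433, and Cd68 had been picked for its rise, so these ratios describe by how much it moved relative to each gene.

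Macrophage and monocyte markers were higher in sum in the PCOS hearts. Of 12 listed, 7 were tested: none passed the test, 6 had differences above 0, 4 of them at an unadjusted p under 0.05, and the median was 0.51. Adgre1, Csf1r and Aif1, also listed, were not matched to a row by symbol. The summed level of the 9 that were matched ranged from 131 to 250 FPKM in controls and from 267 to 375 FPKM in PCOS hearts, with no overlap. Lyz2, C1qa, C1qb and C1qc made up 94.3% to 96.9% of that sum in each sample, and the other 5 together overlapped, at 5.85 to 13.0 FPKM in controls and 9.39 to 11.8 in PCOS hearts. Itgam and Fcgr1, below the minimum, averaged 0.716 and 0.798 FPKM in controls and 0.649 and 0.765 in PCOS hearts. Lyz2 (lysozyme) measured 95.4 ± 22.4 FPKM in controls and 164 ± 30.6 in PCOS hearts, a difference of 0.79 (adjusted p = 0.152). The complement genes C1qa, C1qb and C1qc differed by 0.55, 0.51 and 0.61 and Mrc1, a receptor of resident macrophages, by 0.27, while Cd14 differed by −0.16 and Mertk by 0.08 (none passed). Erythroid markers were higher at an unadjusted p under 0.05 in 3 of 3, where 3.51% of all tested rows were higher. None of the 3 passed the test (adjusted p = 0.738 for each, limma). Their sums overlapped, at 221 to 559 FPKM in controls and 307 to 855 in PCOS hearts. Summed osteoclast markers stayed between 2.87 and 4.11 FPKM in all samples, and Nfatc1 made up most of that sum. Nfatc1 averaged 3.51 FPKM in controls and 3.07 in PCOS hearts, and Oscar 0.170 and 0.316. Calcr, Ocstamp and Dcstamp were near 0 in both groups. In bulk tissue, more cells of a type and more RNA per cell cannot be told apart, and the part of the macrophage and erythroid markers in the Cd68 result was not tested.

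**Figure D2:**
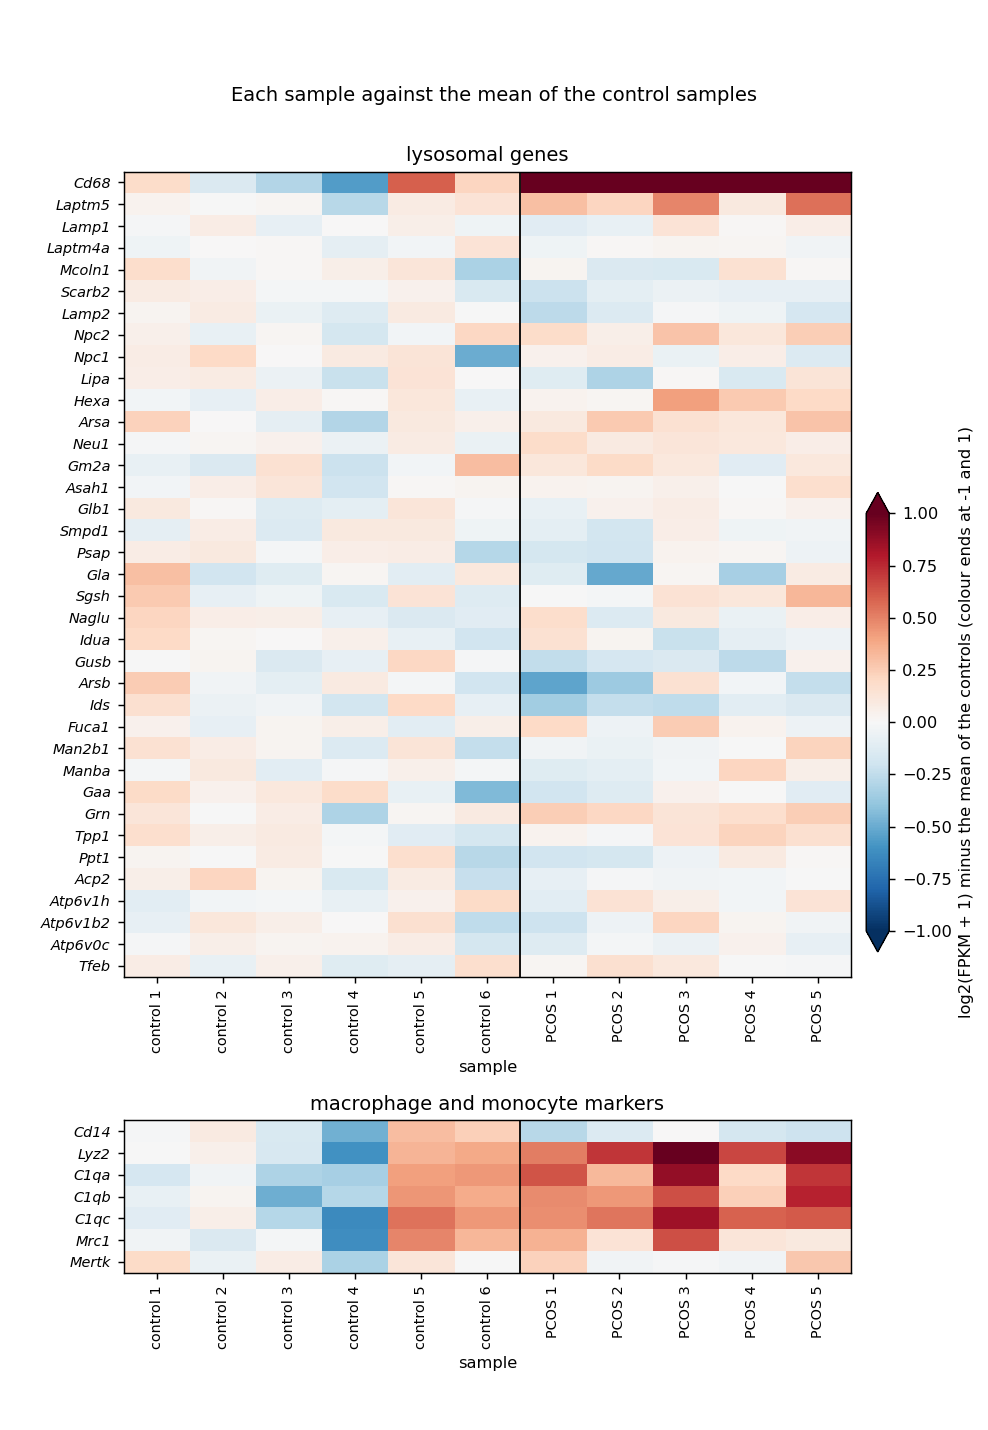
Each sample (columns; the line separates 6 controls from 5 PCOS samples) against the mean of the controls on the log2(FPKM + 1) scale (colour, ending at −1 and 1), for the 37 tested lysosomal genes grouped by role (top) and 7 tested macrophage and monocyte markers (bottom). Only the Cd68 row is at the upper end of the colour scale in all 5 PCOS samples. Control replicate 4 is low for Cd68 and for most of the macrophage markers. It also had the lowest control sums of endothelial and fibroblast markers (not shown).

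The genes for handling sterols and lipid esters in lysosomes held 1 gene at an unadjusted p under 0.05. Npc2, the soluble protein that hands cholesterol to the membrane protein Npc1, had a control median of 22.3 FPKM (range 19.7 to 25.9) and PCOS values of 25.5, 23.3, 27.4, 24.2 and 26.6. The groups overlapped only through control replicate 6, the highest control, and the difference of 0.18 (standard error 0.07) did not pass the test (adjusted p = 0.738). Without that library the highest control was 23.15 FPKM, just below the lowest PCOS sample, and the difference was 0.22 (adjusted p = 0.125, limma). The difference was 0.14 without control replicate 4, the lowest control, and 0.15 without control replicates 2 and 5. Npc2 lies on chromosome 12 from 84754559 to 84773112. Its partner Npc1 averaged 12.1 and 11.9 FPKM (interval −0.24 to 0.23; difference −0.10 without control replicate 6), and Lipa, the acid lipase for cholesteryl esters, differed by −0.09.

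None of the 9 tested genes for breaking down sphingolipids and gangliosides passed the test. 6 had differences above 0, and the lowest adjusted p was 0.738. Hexa, the alpha subunit of beta-hexosaminidase (chromosome 9 from 59539540 to 59565109), had a control median of 35.6 FPKM (range 33.7 to 38.8) and PCOS values of 36.7, 36.3, 47.9, 43.1 and 41.4. PCOS replicates 3, 4 and 5 lay above all controls and replicates 1 and 2 did not, for a difference of 0.18 ± 0.08 (standard error).

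Neu1, the lysosomal sialidase, had a control median of 6.19 FPKM (range 5.84 to 6.59) and PCOS values of 7.14, 6.63, 6.79, 6.72 and 6.51, overlapping in replicate 5 alone. Arsa, arylsulfatase A, which removes sulfate from sulfatides, had a control median of 4.795 FPKM (range 3.63 to 5.66) and PCOS values of 5.07, 5.81, 5.31, 5.14 and 5.93. Their differences were 0.11 and 0.18. Psap, the precursor of the saposin activators, was the most abundant of the 39 genes, at 565 ± 53.4 FPKM in controls and 536 ± 39.2 in PCOS hearts (difference −0.07, interval −0.24 to 0.09, and −0.13 without control replicate 6). Smpd1, the acid sphingomyelinase, averaged 86.9 and 83.5 FPKM. Gm2a, the GM2 activator, differed by 0.08, Asah1, acid ceramidase, by 0.05 and Glb1, beta-galactosidase, by 0.02. Gla, alpha-galactosidase A, differed by −0.17 on a median of 41 reads a sample, the fewest of the tested genes, so its interval ran from −0.44 to 0.10.

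Of the 6 genes for breaking down glycosaminoglycans, 4 had differences below 0 and none passed the test. Ids, iduronate 2-sulfatase (chromosome X from 70343069 to 70385834), was the only gene among the 37 tested that was lower at an unadjusted p under 0.05. It had a control median of 5.71 FPKM (range 5.09 to 6.94) and PCOS values of 4.45, 4.86, 4.82, 5.43 and 5.26, so PCOS replicates 4 and 5 overlapped the controls. The difference was −0.22 ± 0.08 (standard error; adjusted p = 0.738). Gusb, beta-glucuronidase, had a control median of 9.29 FPKM (range 8.37 to 10.9) and PCOS values of 7.73, 8.17, 8.33, 7.61 and 9.66. Arsb, arylsulfatase B, had a control median of 3.11 FPKM (range 2.65 to 3.97) and PCOS values of 1.89, 2.25, 3.63, 3.09 and 2.54. Both overlapped between the groups, with differences of −0.16 and −0.20. Sgsh and Naglu, both needed for heparan sulfate, differed by 0.11 and 0.03, and Idua, alpha-L-iduronidase, by −0.03.

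The genes for proteins and lipid anchors included the only other gene of the 37 without overlap between the groups when all samples are used. Grn encodes progranulin, a secreted and lysosomal protein (chromosome 11 from 102430507 to 102436809). Its control median was 45.6 FPKM (range 35.5 to 48.2), and the PCOS values were 52.5, 51.1, 48.3, 49.7 and 52.5. The lowest PCOS sample, 48.3, was just above the highest control. The difference was 0.20 ± 0.07 (standard error) and did not pass the test (adjusted p = 0.738). Without control replicate 4, the lowest control, it was 0.14. Across all tested rows, 0.45% had every PCOS sample above every control and 0.248% had every one below. Of the 37 tested lysosomal genes, Cd68 and Grn did the former and none the latter. Without control replicate 6, which left 5 controls, 1.7% of all tested rows were above and 1.85% below. Of the 37, Cd68, Grn, Laptm5 and Npc2 were then above and Scarb2 was below. Tpp1, tripeptidyl peptidase 1, differed by 0.11, and Ppt1, which cleaves fatty acids from proteins, by −0.06.

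**Figure D3:**
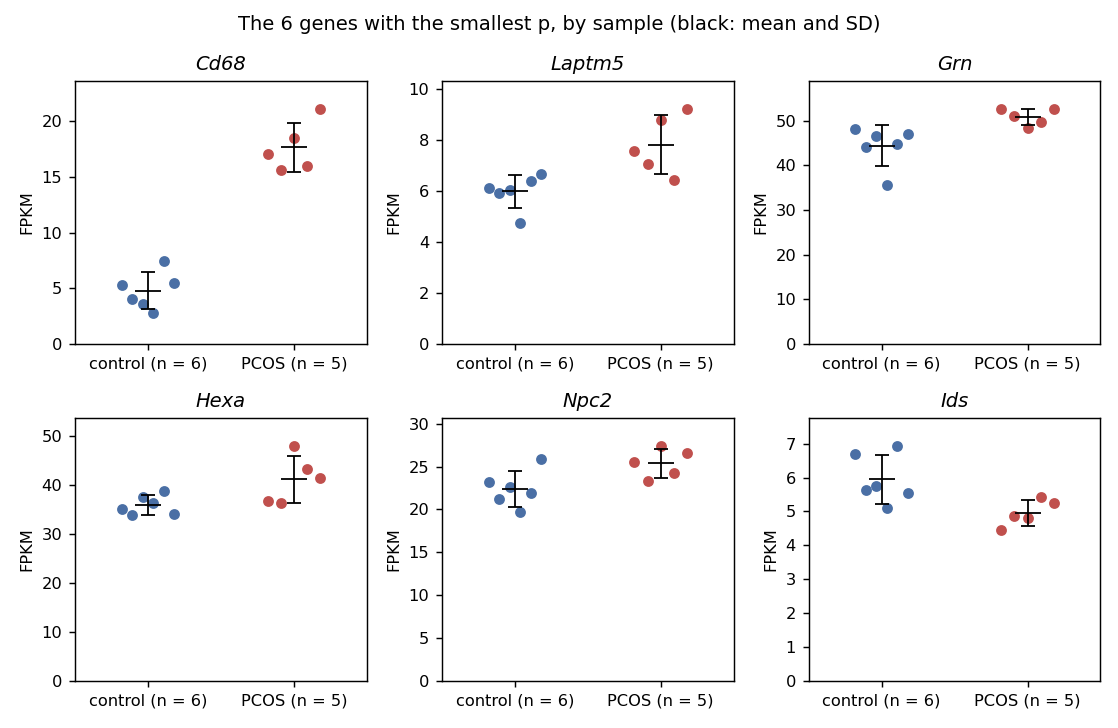
FPKM of each sample (points, with the y axis from 0) in 6 control and 5 PCOS hearts, with the mean and SD in black. The genes are the 6 with the smallest p among the 37 tested. The PCOS points lie above all control points for Cd68 and, by a small margin, for Grn, and overlap them for Laptm5, Hexa, Npc2 and Ids.

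Glycogen and glycoprotein enzymes, the acid phosphatase and the proton pump gave small differences. Gaa, the acid alpha-glucosidase that breaks down lysosomal glycogen in muscle, averaged 55.6 ± 8.54 FPKM in controls and 52.1 ± 3.56 in PCOS hearts (difference −0.08, interval −0.30 to 0.15, and −0.17 without control replicate 6). Man2b1 and Manba, which are mannosidases, and Fuca1, a fucosidase, differed by 0.02, 0.01 and 0.08. Acp2, the lysosomal acid phosphatase, differed by −0.03. For the pump, Atp6v0c, the proteolipid subunit of its membrane ring, averaged 90.7 and 87.6 FPKM, and the soluble subunits Atp6v1b2 and Atp6v1h differed by −0.01 and 0.04. None passed the test.

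The 2 genes below the minimum level are both known from osteoclasts and macrophages. Acp5, the tartrate-resistant acid phosphatase, had 6 to 13 reads in control replicates 1 to 5, 67 reads in control replicate 6 and 11 to 34 reads in PCOS samples. Atp6v0d2, a tissue-restricted pump subunit, had 0 to 2 reads in control replicates 1 to 5, 9 reads in control replicate 6 and 1 to 8 in PCOS samples. Its 0 in control replicate 3 allows up to 3 reads, or 0.0519 FPKM, counting error only. No call was made for either.

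The intervals show how large a difference the other genes could have had. For 22 of the 37 tested genes (59.5%) the 95% interval lay within 0.26 of 0 on the log2(FPKM + 1) scale, as it did for 43.7% of all tested rows. That is 1.2-fold of FPKM + 1, and for genes of a few FPKM it allows a larger fold of the FPKM itself. For the other 15, Cd68 included, the interval reached beyond that size. The widest bounds among the 36 genes that did not pass were −0.46 and 0.54. The samples of a group varied by a median coefficient of variation of 9.49% in controls and 7.86% in PCOS hearts over these genes. In controls Cd68 varied most (34.8%) and Lamp1 least (4.17%), and in PCOS hearts Gla varied most (34.9%), with Cd68 at 12.6%.

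**Figure D4:**
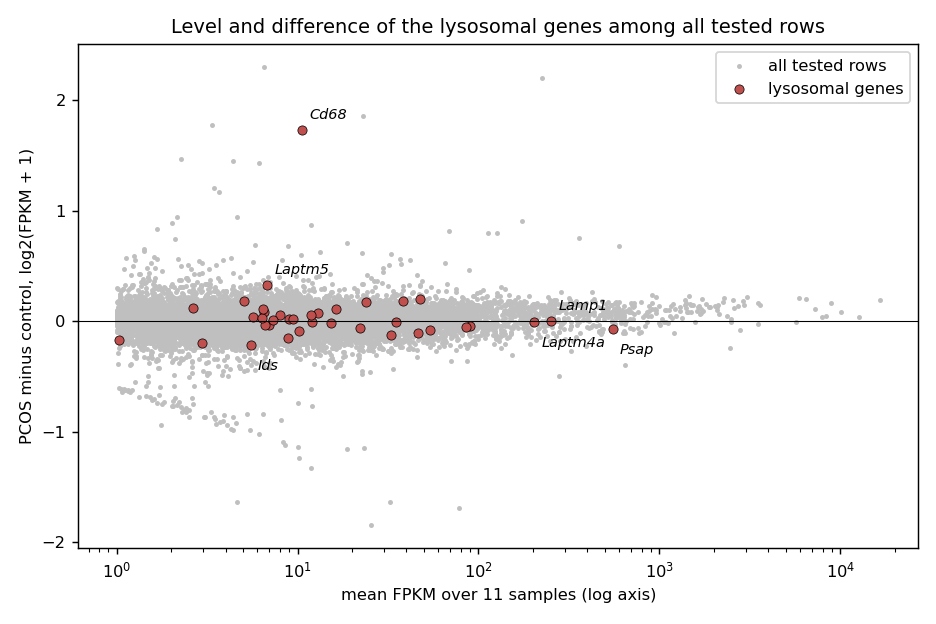
Mean FPKM over 11 samples (x axis, log scale) against the difference between PCOS and control hearts on the log2(FPKM + 1) scale (y axis) for 10891 tested rows (grey) and the 37 tested lysosomal genes (red). Cd68 lies at a mean of 10.6 FPKM and a difference of 1.73, and the abundant genes Lamp1, Laptm4a and Psap lie near 0.

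Tfeb itself averaged 11.6 ± 1.01 FPKM in controls and 12.1 ± 0.711 in PCOS hearts, a difference of 0.06 with an interval of −0.09 to 0.20 (adjusted p = 0.843). Its relatives Tfe3 and Mitf differed by 0.01 and 0.03. The letters CACGTG, which read the same on both strands, occurred in the RefSeq windows of 8 of the 35 lysosomal genes that had one: Arsa, Gaa, Gla, Glb1, Lamp1, Mcoln1, Naglu and Sgsh. That is 19% of their 42 windows, beside 7.15% of all windows and 9.87% of the windows of tested genes. The longer TCACGTGA, which contains CACGTG, occurred in those of Gla and Mcoln1 (4.76% of their windows, 0.974% of all and 1.88% of those of tested genes). The 3 genes with more than 1 CACGTG are shown for comparison with Cd68, as stretches of 100 bases (GRCm38.p6; positions −100 to −1 from the start, and −250 to −151 for Gla): Lamp1 at chr8:13159061-13159160 (plus strand), Mcoln1 at chr8:3500419-3500518 (plus strand) and Gla at chrX:134601156-134601255 (minus strand). They are written 5′ to 3′ with CACGTG in capitals.
Lamp1: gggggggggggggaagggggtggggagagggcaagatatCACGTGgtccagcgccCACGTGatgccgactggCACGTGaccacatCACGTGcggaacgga
Mcoln1: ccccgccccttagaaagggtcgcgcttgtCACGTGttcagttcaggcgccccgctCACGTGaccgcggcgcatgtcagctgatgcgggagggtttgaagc
Gla: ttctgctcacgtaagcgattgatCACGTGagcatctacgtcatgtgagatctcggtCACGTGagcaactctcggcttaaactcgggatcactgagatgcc
The Lamp1 window holds 4 copies, which 0.0244% of all windows do. None of the 8 genes with CACGTG passed the test, and their differences ran from −0.17 for Gla to 0.18 for Arsa.

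Other lysosomal genes outside the 40 were counted from 4 lists, and none of their tested genes passed the test. Of the other V-ATPase genes 14 of 20 were tested, 11 with differences above 0 and a median of 0.08. Among all tested rows, 50.6% had differences above 0. The summed level of these V-ATPase genes was highest among controls in replicate 6, at 750 FPKM (next 710), and ran from 677 to 754 FPKM in PCOS hearts. Atp6v1e1, a stalk subunit, measured 99.2 and 106 FPKM (difference 0.10), and Tcirg1, a membrane subunit known from osteoclasts, differed by 0.23 (interval −0.07 to 0.53). Of the other hydrolases and activators 23 of 25 were tested, 9 with differences above 0 and 14 below. Plbd1, a phospholipase B-like protein, had means of 24.7 and 20.2 FPKM (difference −0.27, interval −0.47 to −0.07). Of the other membrane proteins 18 of 25 were tested and divided 9 to 9, with Cln3 at 0.28 and Slc11a1, a metal transporter of phagocytes, at 0.27. At an unadjusted p under 0.05 (limma), 3 of the 18 were higher and 2 were lower. Of all tested rows, 3.51% were higher and 3.17% lower at that limit. Sorting and control genes divided 10 above to 11 below. There, Rraga, a small GTPase that signals amino acids to mTORC1, differed by −0.25, and Gnptab, which makes the mannose 6-phosphate tag that sends hydrolases to lysosomes, by −0.19.

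Exons of 13 of the 40 genes overlap those of a neighbour in GENCODE, among them Hexa, Grn, Lamp1, Arsa and Arsb on opposite strands, and Glb1 on the same strand. The libraries were made with a stranded kit, but the strand setting of the counting is not given in the sources used here, so reads in the shared parts cannot be told apart.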

How the data were processed

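Poly(A) RNA of 5 PCOS and 6 control hearts was sequenced from stranded libraries, per the labels. The authors deposited FPKM per RefSeq transcript row. The submitters' processing notes list the build mm10 and, with no role given, HISAT2 2.2.1, HTSeq 0.13.5, DESeq2 1.18.1, R 3.4.1, Trimmomatic 0.38 and FastQC 0.11.9. FPKM are relative within a library, so abundant transcripts can shift the others. Symbols came from RefSeq (GRCm38.p6), matching 87.2% of 21878 rows. Whole reads were recovered from the steps of the values in 15939 of 15939 rows with 3 or more samples above 0 (tolerance 0.02 of a read).

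limma 3.58.1 in R 4.3.3 (eBayes with a trend) was run on log2(FPKM + 1), which understates changes of low genes, in 10891 rows with a mean of at least 1 FPKM, with Benjamini-Hochberg adjustment and checked on simulated data. Ratios used exact permutation tests (scipy 1.17.1). The members, gene lists, and rule for named genes (all members; per-sample values for those called and the 12 with the smallest p; from each other list, the 2 with the smallest p) were chosen with earlier results of these data known. A gene that the rule names is not reported here. Alternatives covered the pseudocount, filter, scaling, a replicate block, sample weights, voom on recovered reads and samples left out.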

Additional observations from a re-analysis of the deposited data

Results flagged for a closer look

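In 8 of the 78 groups of lysosomal gene values (39 genes in controls and in PCOS hearts), 1 sample lay farther from the rest than Dixon's 95% limit allows (0.625 for 6 samples, 0.71 for 5). Chance flags about 1 group in 20. Control replicate 6, the library with hepatocyte transcripts, accounts for 4 of the 8. It held the lowest control values of Psap (461.5 FPKM, next 554) and of Npc1 (8.191 FPKM, next 11.95), and the highest of Acp5 (1.81 FPKM, next 0.318) and Atp6v0d2 (0.1717 FPKM, next 0.0413). Grn was lowest in control replicate 4, at 35.53 FPKM (next 44.1). In PCOS hearts, Scarb2 was lowest in replicate 1, at 40.87 FPKM (next 44.5), and Asah1 and Man2b1 were highest in replicate 5, at 8.918 FPKM (next 8.15) and 11.17 FPKM (next 9.38). Over the 37 tested genes, control replicate 6 was the lowest control for 14 and the highest for 6.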

How the results depend on the processing

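Cd68 passed the test in all 21 alternatives, with log2 differences from 1.62 (without control replicate 4) to 1.95 (voom on recovered reads) and adjusted p from 3.37e-05 to 0.00348. The other 36 tested lysosomal genes gave 752 values under the alternatives, of which 0 passed the test; the lowest adjusted p was 0.0901, for Laptm5 with the replicate block. The sign changed in at least 1 alternative for 11 genes, whose differences were at most 0.03 in size as reported and ran from −0.12 to 0.08 under the alternatives. The median over the genes ranged from −0.012 to 0.036. The count of all rows that rose, 15 as reported, was 5 with a mean of at least 5 FPKM, 23 with the replicate block, 24 with sample weights and 26 without control replicates 2, 5 and 6. Leaving out 1 sample at a time gave 10 to 29, with 29 without control replicate 6. The count that fell, 0 as reported, was 1 with median-ratio scaling, 1 with quantile normalization, 2 with the replicate block, 1 with sample weights, and 0 to 3 with 1 sample left out (3 without control replicate 6, 1 without PCOS replicate 2); the cause was not tested. Deviations of same-numbered samples correlated by −0.118 to 0.254, so the numbers were not taken to pair samples. Depth limits Gla, Acp5 and Atp6v0d2 most.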
